A study of Homo sapiens with 6 samples.

Results

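The genes described here encode enzymes and a carrier of NAD metabolism, covering salvage and synthesis, phosphorylation, transport and nicotinamide methylation. They were chosen by name, as a list of 10, and matched by symbol to the identifiers in the files, and all 10 were found among 63140 genes listed. Of these, 8 had enough counts to be tested, among 14451 genes tested in all.

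NAD carries electrons in redox reactions and is consumed by sirtuins, poly(ADP-ribose) polymerases and NAD glycohydrolases, which release nicotinamide. NAMPT turns nicotinamide into nicotinamide mononucleotide, the rate-limiting step of salvage, and the NMNAT enzymes complete the coenzyme in the nucleus, Golgi or mitochondria. Other routes start from nicotinic acid, nicotinamide riboside or tryptophan.

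The RNA-seq libraries came from wild-type BT-549, an established line of triple negative breast cancer, after 24 h in ACM (3 libraries) or UCM (3 libraries). The cells were kept in RPMI-1640 with 10% tetracycline-approved serum and 0.8 µg/mL insulin. ACM was an alpha-MEM medium of insulin, oleate and albumin that mouse OP9 adipocytes had conditioned. The labels give 50% ACM, whereas the study's supplement describes undiluted ACM for these libraries. The formula of UCM is not given in the sources used here, so base medium, serum, oleate and insulin cannot be told apart from adipocyte secretions. The replicates of a group were wells seeded from the line and lysed in place, and separate passages or days are not described, so p-values measure the spread between wells. ACM replicates 1, 2 and 3 held 21053214, 18011677 and 18378771 rounded expected counts, and the UCM replicates 20975771, 18591257 and 17135270.

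The labels call the cells epithelial, and the markers were checked. Of 13 epithelial markers, 3 had enough counts to be tested, and the summed level of all 13 was 8.52, 12.9 and 10.2 TPM (a level per length, scaled to the library) in ACM and 9.34, 13.0 and 11.3 TPM in UCM. The most abundant was KRT7, and ESRP1 had no count in any library. All 7 mesenchymal markers were tested, with a summed level of 5637, 5828 and 5920 TPM in ACM and 5238, 5699 and 5839 TPM in UCM, led by VIM. Of 10 adipocyte markers, ADIPOQ, LEP, CIDEC and CIDEA had no count in any library, PLIN1 had 1, 0 and 1 counts in ACM against 0 in UCM, and FABP4 had 2, 0 and 1 against 0, 1 and 0. The 10 summed to 3.82, 3.87 and 4.01 TPM in ACM and 4.66, 6.77 and 6.06 TPM in UCM, led by LIPE.

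Levels per length differed widely among the genes. In UCM, NNMT, which methylates nicotinamide and so removes it from salvage, was the highest at 429 ± 68.4 TPM (SD, n = 3), rank 326 of the 14451 genes tested. NAMPT followed at 152 ± 1.96 TPM, rank 1083. NADK, the cytosolic NAD kinase, and NAPRT, which starts synthesis from nicotinic acid, were next, with 101, 112 and 87.0 TPM for NADK and 102, 87.7 and 85.2 TPM for NAPRT, and their values overlapped. NADK2, the mitochondrial NAD kinase, had 29.3 ± 2.70 TPM and SLC25A51, the mitochondrial NAD carrier, 27.0 ± 2.26 TPM, also with overlapping values. NMNAT1, the nuclear enzyme, was at 13.9 ± 0.959 TPM and NMNAT2, the Golgi enzyme, at 8.72 ± 1.95 TPM, with all values of NMNAT1 above those of NMNAT2. In ACM the values of NNMT and NAMPT overlapped, since NAMPT reached 521 TPM in replicate 2 and NNMT had 480.0 TPM in replicate 1.

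NMNAT3, the mitochondrial enzyme, had 2, 2 and 0 counts in ACM against 2, 1 and 0 in UCM. NMRK1, which phosphorylates nicotinamide riboside, had 4, 7 and 8 counts in ACM against 6, 2 and 1 in UCM. Both were too low for the filter. With the filter of at least 1 count in total they were tested and not called (adjusted p = 0.927 and 0.605 from edgeR).

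At an adjusted p at or below 0.05 from edgeR, 0 of the 8 tested genes of the list were higher and 0 were lower in ACM. Over all genes tested, 484 (3.35%) were higher and 320 (2.21%) were lower by the same rule. At an unadjusted p at or below 0.05, 4 of the 8 were higher (NAMPT, NAPRT, NADK2 and NNMT) and 0 were lower. Of all genes tested, 11.9% were higher and 11.5% lower by that rule. DESeq2 called 1 of the 8, NAMPT, at its adjusted p, where it called 726 genes higher and 420 lower among 13637. The study's thresholds were p at or below 0.05, taken here as unadjusted, and a log2 FC of at least 0.58 either way. By them NAMPT was the single UpDEG of the list, where 4.12% of all genes tested were UpDEGs. The study also names NAMPT among its UpDEGs, and the log2 FC it reports is lower than the 1.14 from edgeR here. DownDEGs of the list were 0, against 1.71%. All 3 ACM values lay above all 3 UCM values for 3 of the 8, NAMPT, NADK and NADK2, against 13.9% of all genes tested. For 0 of the 8 they lay below, against 15.1%. In the edgeR comparison the median log2 FC was 0.22 over the 8 and -0.01 over all genes tested, with 6 of 8 and 6954 of 14451 above 0. The median of the 8 was not taken under other scalings, where values of single members moved in both directions. In bulk RNA, fewer cells that express a gene and less RNA per cell cannot be told apart.

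**Figure D1:**
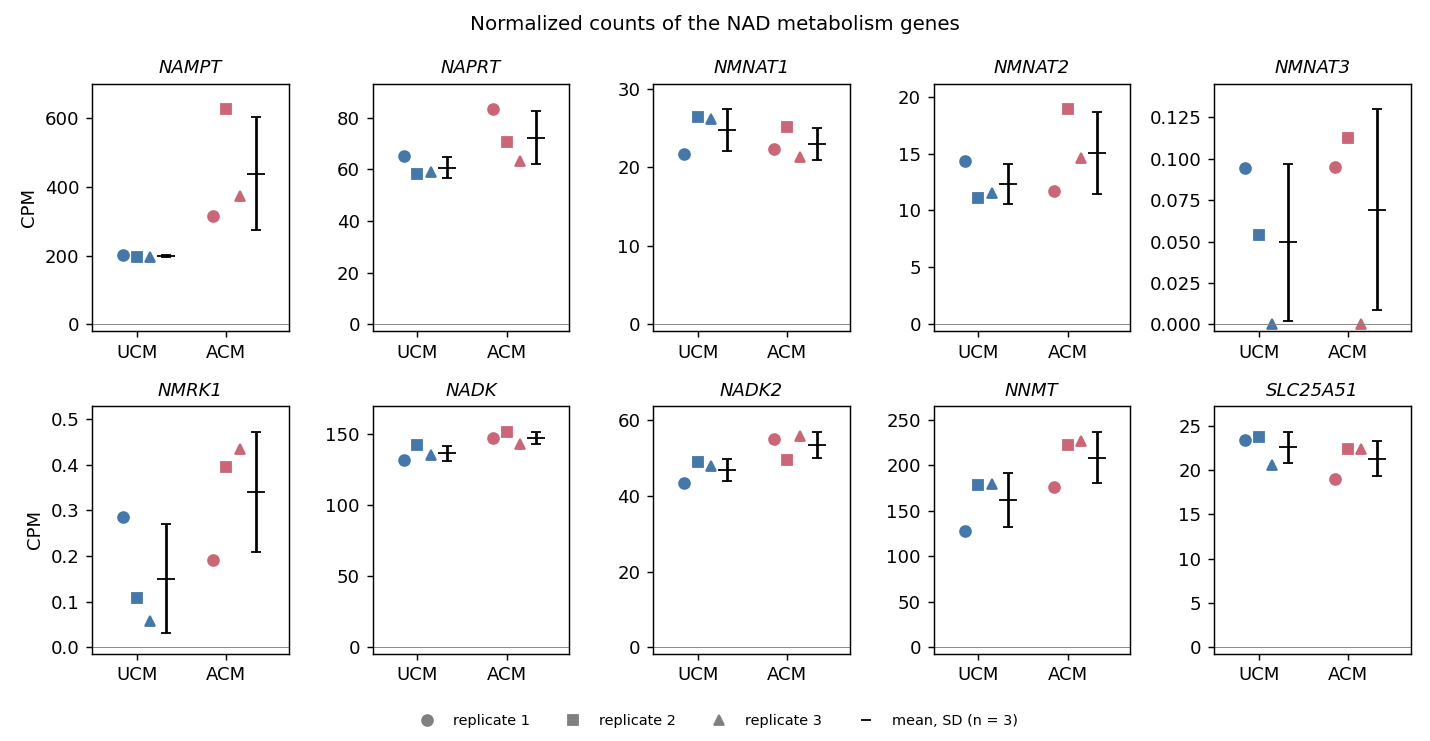
Normalized counts in CPM (counts scaled to library size by TMM) of each gene of the list in the UCM (blue) and ACM (red) libraries, with a symbol per replicate and the mean and SD (n = 3) in black. NAMPT reached 626 CPM in ACM replicate 2, while its UCM libraries lay between 197 and 201 CPM.

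NAMPT (ENSG00000105835) lies on the minus strand of chromosome 7 of GRCh38, from 106248298 to 106285966, and has 49 transcripts in GENCODE 44. ACM replicates 1, 2 and 3 held 6649, 11111 and 6898 expected counts and the UCM replicates 4242, 3676 and 3386, which is 316, 626 and 375 CPM in ACM and 201, 198 and 197 CPM in UCM. All ACM values lay above all UCM values, the UCM values lay close together, and ACM replicate 2 stood far above the other ACM libraries. Its log2 FC was 1.14 (standard error 0.25, a 2.21-fold higher level), and the adjusted p from edgeR was 0.0609, above the threshold. Without ACM replicate 2 the log2 FC was 0.80 and the adjusted p from edgeR 0.0028, below the threshold. Without ACM replicate 1 these were 1.34 and 0.0252, and without any single other library the adjusted p stayed between 0.0606 and 0.215. By a median over all genes, ACM replicate 2 did not stand apart. Its median absolute log2 difference from the other libraries of its group was 0.13, against 0.14 and 0.13 for ACM replicates 1 and 3 and 0.17 for UCM replicate 1. Such a median does not show whether the genes that respond to ACM differed in that library. Without ACM replicate 2, 197 genes were called higher and 87 lower. These were 415 and 206 without ACM replicate 1, 320 and 190 without ACM replicate 3, and 125 and 70 without UCM replicate 2.

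**Figure D2:**
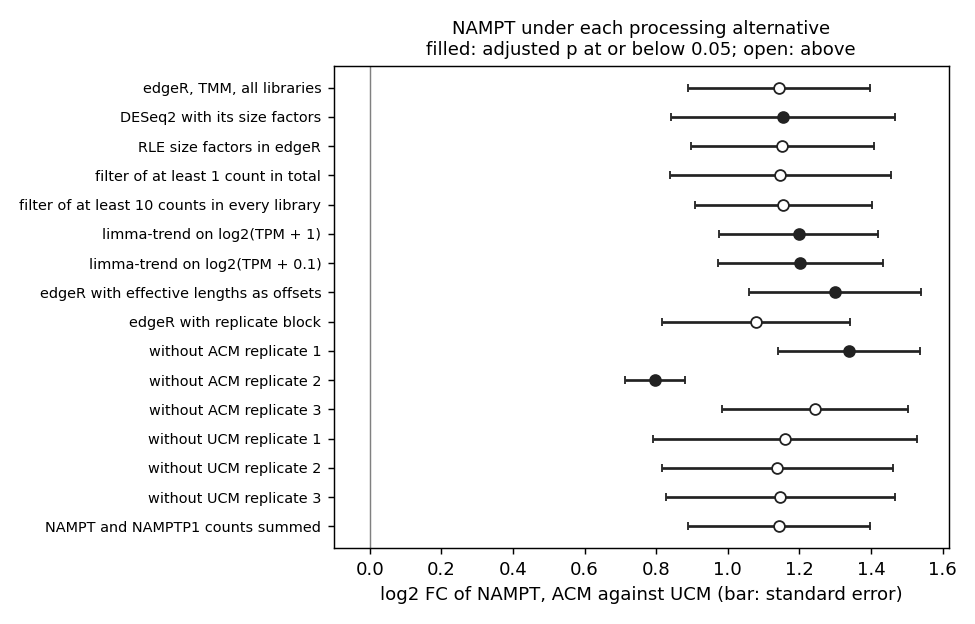
Log2 FC of NAMPT in ACM against UCM with its standard error under the edgeR comparison and each alternative, filled where the adjusted p was at or below 0.05. The values lay between 0.80 and 1.34, all above 0, and the lowest was without ACM replicate 2.

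The effective length of NAMPT, a mean over its transcripts weighted by their estimated abundance in a library, was 1738, 1663 and 1696 bases in ACM and 1913, 1817 and 1889 bases in UCM. It was shorter in every ACM library than in any UCM library, as for 3.70% of all genes tested. The annotated transcripts of NAMPT span 318 to 7554 bases, and which of them differed was not tested. NADK2 was the other way round, with 2421, 2599 and 2527 bases in ACM and 2410, 2278 and 2193 in UCM, each ACM value above each UCM value, as for 5.49% of all genes tested. With effective lengths as offsets, the log2 FC of NAMPT was 1.30 and its adjusted p from edgeR 0.0368, where all alternatives together spanned 0.0028 to 0.215.

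**Figure D3:**
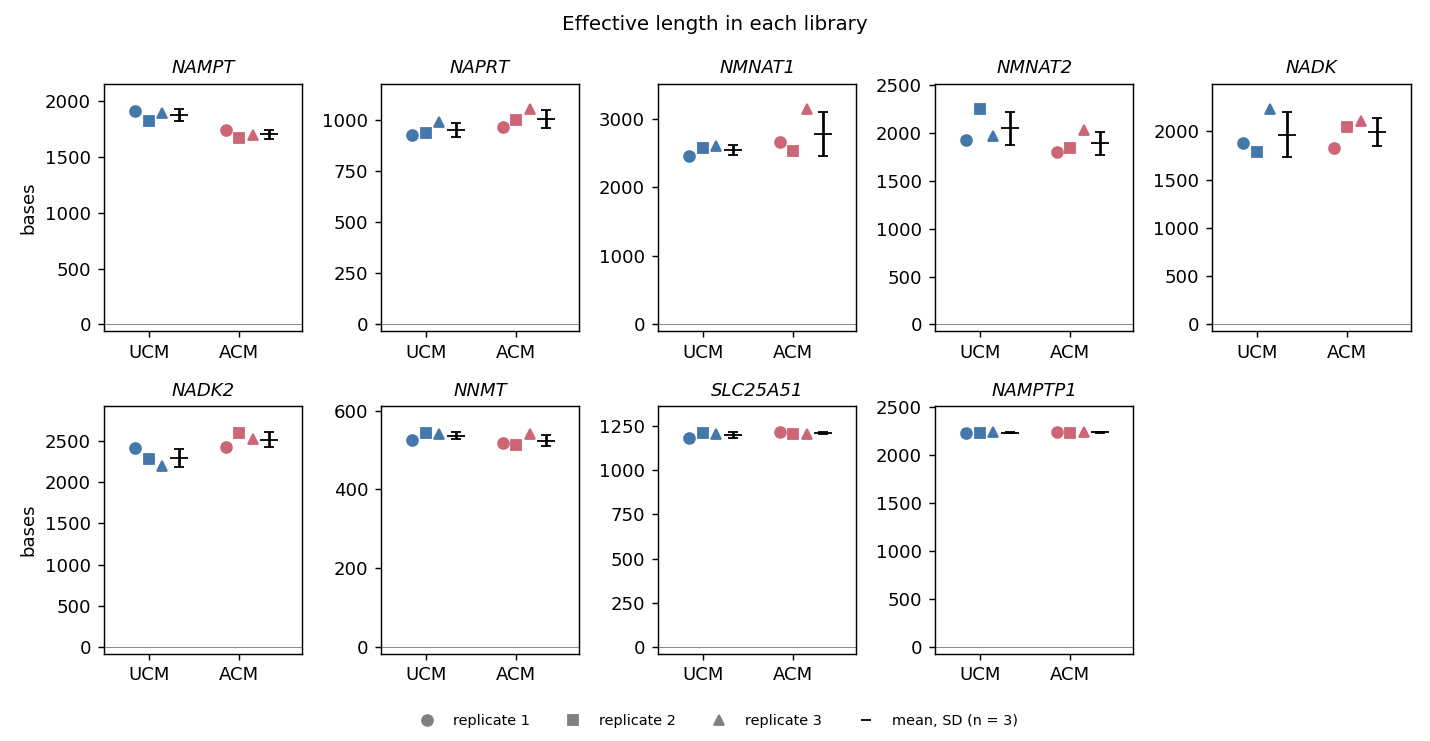
Effective length in bases, on an axis that includes 0, of the 8 tested genes and of NAMPTP1 in each library, with the mean and SD (n = 3) in black. NAMPT was shorter in the 3 ACM libraries, while NAMPTP1 stayed between 2231 and 2238 bases.

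Reads of NAMPT can be shared with NAMPTP1, a processed pseudogene whose transcript of 2514 bases aligns to a NAMPT transcript over 2500 bases with 97.6% identity. NAMPTP1 had 219, 378 and 241 counts in ACM against 129, 128 and 117 in UCM. Its share of the expected counts of both was 3.18%, 3.29% and 3.37% in ACM and 2.96%, 3.36% and 3.33% in UCM, so the ranges overlapped. The log2 FC of NAMPTP1 was 1.17 (standard error 0.25, edgeR adjusted p = 0.0335), and how its reads were split from those of NAMPT is uncertain. It passed in 8 of 14 alternatives, and its adjusted p was 0.0605 and 0.0554 with limma-trend with 1 or 0.1 added to TPM, 0.0637 without ACM replicate 3, and 0.0784, 0.139 and 0.117 without UCM replicates 1, 2 and 3. With the counts of both summed, an alternative chosen after seeing the data, the log2 FC of NAMPT was 1.14 and the adjusted p from edgeR 0.0610. NAMPTP2 and NAMPTP3 had no count. The lncRNA ENSG00000273320, which overlaps the start of NAMPT on the opposite strand, had 11, 4 and 6 counts in ACM against 10, 22 and 7 in UCM.

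NAPRT had 1749, 1251 and 1160 counts in ACM against 1375, 1080 and 1008 in UCM, which is 83.1, 70.5 and 63.1 CPM and 65.1, 58.1 and 58.8 CPM. The groups overlapped, and replicate 1 was the highest of each. Its log2 FC was 0.25 with a standard error of 0.10 (edgeR adjusted p = 0.174), and it was 0.14 without ACM replicate 1 and with limma-trend. Its neighbour ENSG00000279605, on the opposite strand and overlapping it, had 92, 35 and 37 counts in ACM against 78, 46 and 62 in UCM.

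NMNAT1 had 22.3, 25.2 and 21.4 CPM in ACM and 21.7, 26.3 and 26.1 CPM in UCM, and NMNAT2 had 11.7, 18.9 and 14.6 CPM in ACM and 14.4, 11.1 and 11.5 CPM in UCM. The groups overlapped for both genes, and NMNAT2 was highest in ACM replicate 2. The log2 FC was -0.11 for NMNAT1 (standard error 0.11, edgeR adjusted p = 0.626) and 0.29 for NMNAT2 (standard error 0.18, adjusted p = 0.386). That of NMNAT2 was 0.09 without ACM replicate 2 and 0.45 without ACM replicate 1. That of NMNAT1 lay between -0.19 and -0.05 with a library left out, and was -0.20 with offsets and -0.22 or -0.24 with limma-trend.

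NADK had 147, 151 and 143 CPM in ACM and 131, 142 and 135 CPM in UCM, and NADK2 had 55.1, 49.6 and 55.8 CPM in ACM and 43.5, 48.9 and 47.9 CPM in UCM. For both kinases every ACM value in CPM was above every UCM value, by a margin of under 1 CPM at the closest pair. In TPM the groups overlapped, with 114, 102 and 97.7 in ACM against 101, 112 and 87.0 in UCM for NADK, and 32.2, 26.4 and 31.9 against 26.2, 30.3 and 31.3 for NADK2. The log2 FC was 0.11 for NADK (standard error 0.06, edgeR adjusted p = 0.347) and 0.19 for NADK2 (standard error 0.08, adjusted p = 0.189). With limma-trend on TPM these were 0.07 and 0.04, and NADK2 had 0.07 with offsets. SKP2, whose annotated 3′ end overlaps that of NADK2 on the opposite strand, had 1155, 870 and 1008 counts in ACM against 1313, 1263 and 1174 in UCM, with a log2 FC of -0.32 (edgeR adjusted p = 0.0428). It passed in 9 of 14 alternatives, with a log2 FC of -0.51 and -0.52 with limma-trend and -0.49 with offsets. Its adjusted p was 0.0644, 0.163 and 0.0705 without ACM replicates 1, 2 and 3, and 0.182 and 0.196 without UCM replicates 2 and 3. These alternatives were run for it after seeing the data. Whether counting used strand is not given in the sources used here, so the reads of both in that overlap cannot be told apart.

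NNMT had 3696, 3936 and 4172 counts in ACM against 2684, 3309 and 3067 in UCM, which is 176, 222 and 227 CPM and 127, 178 and 179 CPM. The groups overlapped, and replicate 1 was the lowest of each. Its log2 FC was 0.37 with a standard error of 0.15 (edgeR adjusted p = 0.206), and it was 0.23 without UCM replicate 1. With the filter of at least 1 count in total, NNMT was called (adjusted p = 3.44e-04 from edgeR). In that fit its standard error was 0.08, and 1045 genes were called higher in place of 484. No weight is given to this call.

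SLC25A51 had 19.1, 22.4 and 22.4 CPM in ACM and 23.4, 23.8 and 20.6 CPM in UCM, with overlapping groups. Its log2 FC was -0.09 with a standard error of 0.11 (edgeR adjusted p = 0.696), and it was -0.00 without ACM replicate 1, -0.05 without UCM replicate 1 or 2 and -0.14 without UCM replicate 3. Its near copy SLC25A52 had 1, 0 and 2 counts in ACM against 0 in UCM. ENSG00000255872, a protein-coding gene that spans it on the same strand, had 92, 125 and 78 counts in ACM against 38, 70 and 110 in UCM.

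The rest of NAD synthesis was examined in a list of 13 genes, of which 8 were tested. By adjusted p, KYNU and NT5E were higher, as were 3.35% of all genes tested, and none was lower, against 2.21%. TDO2 also passed. QPRT was lower at an unadjusted p at or below 0.05, as were 11.5% of all genes tested. TDO2 reached the level of the filter in 3 ACM libraries and 0 UCM libraries, so no weight is given to its call. The calls are given by gene and not as support for the list. KYNU, kynureninase of the tryptophan route, had 249, 395 and 222 counts in ACM against 109, 73 and 61 in UCM. Every ACM value was above every UCM value, and the log2 FC was 1.86 with a standard error of 0.28 (edgeR adjusted p = 0.0109). TDO2, tryptophan 2,3-dioxygenase, had 25, 52 and 50 counts in ACM against 5, 9 and 6 in UCM, and had no value with at least 10 counts in every library. Its log2 FC was 2.66 with a standard error of 0.48, and also 2.66 with the filter of at least 1 count in total. With limma-trend it was 1.32 or 2.46 with 1 or 0.1 added to TPM, so its size depends on the value added. NT5E, the surface nucleotidase CD73, had 194, 319 and 206 CPM in ACM and 133, 93.2 and 97.0 CPM in UCM. ACM replicate 2 was again the highest, and the log2 FC was 1.15 with a standard error of 0.24 (edgeR adjusted p = 0.0479).

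Leaving out certain single libraries ended the calls of KYNU and NT5E, and the filter of at least 1 count in total ended that of NT5E (adjusted p = 0.154 from edgeR). TDO2 also no longer passed without ACM replicate 2 or UCM replicate 3. The adjusted p of KYNU from edgeR was 0.0674 without UCM replicate 2 and 0.0542 without UCM replicate 3. That of NT5E was 0.0519 without ACM replicate 3, and 0.0584, 0.186 and 0.189 without UCM replicates 1, 2 and 3. Over all alternatives the adjusted p ran from 5.68e-23 to 0.0674 for KYNU and from 0.0020 to 0.189 for NT5E. The lowest value for KYNU came from the filter of at least 1 count in total, whose p-values are read with caution.

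Promoters are shown for NAMPT, KYNU, NT5E and TDO2. Each is the 250 bases before the RefSeq start on GRCh38.p14, 5′ to 3′ on the strand of the gene. Entries existed for 7 of the 10 genes of the list. Capitals mark matches, on either strand, to the GC box GGGCGG, the E-box CACGTG, the AP-1 motif TGANTCA or the TATA motif TATAAA. NAMPT lies at chr7:106284984-106285233 on the minus strand, KYNU at chr2:142877414-142877663, NT5E at chr6:85449833-85450082 and TDO2 at chr4:155903446-155903695, these on the plus strand. The RefSeq start lay 983 bases inside the GENCODE 44 gene for NAMPT, 7 for KYNU, 499 for NT5E and 48958 for TDO2, so the windows of NAMPT, NT5E and TDO2 lie within those genes and other annotated starts are not shown.
NAMPT: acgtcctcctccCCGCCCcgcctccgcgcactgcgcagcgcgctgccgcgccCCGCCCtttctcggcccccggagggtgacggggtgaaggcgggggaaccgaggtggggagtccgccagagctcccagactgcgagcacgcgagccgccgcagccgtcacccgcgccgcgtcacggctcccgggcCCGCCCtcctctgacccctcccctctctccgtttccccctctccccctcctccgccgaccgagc
KYNU: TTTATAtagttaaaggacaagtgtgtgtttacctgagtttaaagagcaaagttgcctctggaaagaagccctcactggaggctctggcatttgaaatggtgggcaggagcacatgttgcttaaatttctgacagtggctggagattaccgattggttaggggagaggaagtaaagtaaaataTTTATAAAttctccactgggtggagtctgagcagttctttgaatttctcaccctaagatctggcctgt
NT5E: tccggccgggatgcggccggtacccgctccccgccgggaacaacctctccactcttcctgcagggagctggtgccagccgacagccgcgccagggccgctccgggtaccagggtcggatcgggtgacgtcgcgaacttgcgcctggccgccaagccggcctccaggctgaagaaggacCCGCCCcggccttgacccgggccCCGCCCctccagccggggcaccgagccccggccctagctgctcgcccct
TDO2: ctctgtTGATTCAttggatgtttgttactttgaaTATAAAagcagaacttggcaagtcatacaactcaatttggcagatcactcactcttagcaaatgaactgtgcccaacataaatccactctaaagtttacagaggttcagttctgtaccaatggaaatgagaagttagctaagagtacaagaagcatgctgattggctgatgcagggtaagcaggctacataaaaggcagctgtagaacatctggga

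NAMPT held 3 GC box matches and NT5E 2, where 42.6% of 35116 promoter windows of this length held at least 1. KYNU held 3 TATA matches, of which some overlap each other, and TDO2 held 1, a motif found in 10.7% of windows. TDO2 held 1 AP-1 match, against 6.57% of windows. The E-box, held by 6.34% of windows, had 0 matches in these 4 windows. A match describes letters only.

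Of the genes that consume NAD, 0 passed the adjusted p in the edgeR comparison. Over all genes tested, 3.35% passed it as higher and 2.21% as lower. Of 7 sirtuins, 6 were tested with a median log2 FC of -0.01. SIRT2, the most abundant, averaged 73.1 TPM in ACM and 71.4 TPM in UCM, with a log2 FC of -0.04 (edgeR adjusted p = 0.820). At an unadjusted p at or below 0.05, which 11.9% of all genes tested passed as higher and 11.5% as lower, 0 sirtuins were higher and 1, SIRT1, was lower. Of 16 genes of the PARP family, 14 were tested with a median of 0.16, and PARP1, the most abundant, had a log2 FC of 0.01 (edgeR adjusted p = 0.943). At the unadjusted p, PARP3 was higher and TIPARP lower of the 14. Of the 3 NAD glycohydrolases, BST1 was the most abundant with a log2 FC of -0.04, and CD38 had 19, 23 and 20 counts in ACM against 10, 13 and 8 in UCM. CD38 reached the level of the filter in 3 ACM libraries and 1 UCM library, so no weight is given to its unadjusted p or to its place among the UpDEGs, and its adjusted p was 0.163, or 0.322 with the filter of at least 1 count in total. The sign of SIRT2, PARP1 and BST1 changed under some alternatives. SIRT1, PARP3, TIPARP and CD38 were named after their values had been seen, as was QPRT. Over 14 alternatives the adjusted p was passed in 4 for SIRT1, 3 for TIPARP and 1 each for PARP3 and QPRT.

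NAD repair, turnover and precursor transport gave 9 tested genes of 13, with a median log2 FC of -0.03. By adjusted p 0 were called in either direction, where 3.35% of all genes tested were higher and 2.21% lower. At the unadjusted p 1 was higher and 0 were lower, against 11.9% and 11.5%. NAXE, which repairs hydrated NADH, was the most abundant and had a log2 FC of -0.11 (edgeR adjusted p = 0.401), or -0.05 with offsets. The shuttles that pass reducing equivalents of NADH and the lactate dehydrogenases gave 11 tested genes of 12 with a median of -0.11. By adjusted p 0 were called, against the same 3.35% and 2.21% over all genes. At the unadjusted p 1 was higher and 2 were lower, against 11.9% and 11.5%. LDHA, the most abundant, averaged 844 TPM in ACM and 727 TPM in UCM, a log2 FC of 0.23 (edgeR adjusted p = 0.135). It was 0.13 without ACM replicate 2. The adjusted p from edgeR was 0.0421 with the filter of at least 1 count in total, a setting whose p-values are read with caution.

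**Figure D4:**
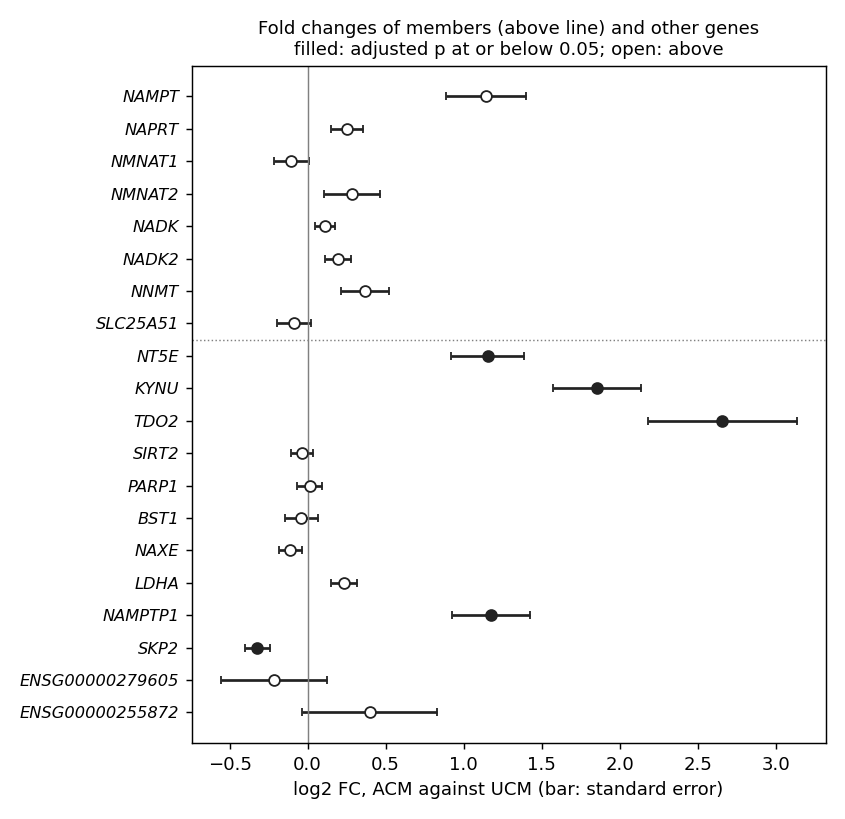
Log2 FC in ACM against UCM with standard errors, for the 8 tested genes of the list (above the dotted line) and of other genes described, filled where the adjusted p from edgeR was at or below 0.05. The 8 are all open, from -0.11 to 1.14. TDO2 is filled, but no weight is given to its call.

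Over the 6 libraries, the 5 tested genes of at least 10 CPM whose log2 CPM relative to the UCM mean lay nearest to that of NAMPT were NAMPTP1, AKR1B1, MCTP1, CITED4 and DIO3. Their root mean square differences from NAMPT were 0.07, 0.07, 0.10, 0.12 and 0.12 on the log2 scale. AKR1B1, aldose reductase, had 319, 555 and 355 CPM in ACM and 202, 195 and 194 CPM in UCM. These genes were picked for their likeness to NAMPT, so a higher level in ACM and a peak in ACM replicate 2 follow from the choice. No conclusion about the likeness is drawn from their tests. NAMPTP1 and MCTP1, with a UCM mean of 6.61 and 9.38 CPM, reached 10 CPM through ACM.

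**Figure D5:**
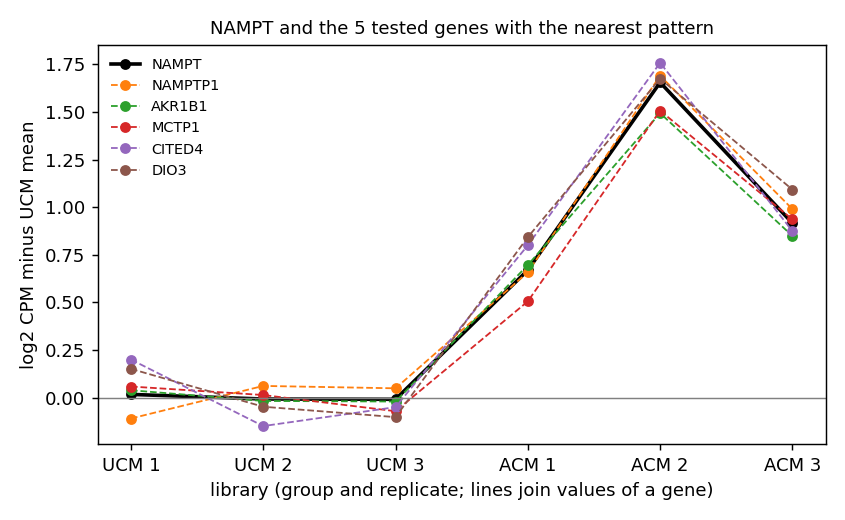
Log2 CPM minus the UCM mean in each library for NAMPT (black) and the 5 nearest genes (dashed), with lines that join the values of a gene and stand for no order. The genes were chosen for this likeness, so the shared peak in ACM replicate 2 follows from the choice.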

How the data were processed

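Gene expression was compared in 3 ACM and 3 UCM libraries. Per the labels, the authors used Trim Galore for trimming, STAR for alignment to GRCh38 and RSEM for quantification, whose versions are not given in the sources used here. The authors deposited expected counts, which divide ambiguous reads between genes and are not scaled for library size. The deposited TPM values are scaled by effective length and to the library's sum, and effective lengths were deposited beside them. A further deposited table holds the authors' own log2 fold changes with errors, Wald statistics and p-values, and was not used. Identifiers of 62541 of 63140 genes matched GENCODE 44 without version and 61547 with it.

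Expected counts were rounded and tested in R 4.3.3 with edgeR 4.0.16 (TMM, filterByExpr, robust quasi-likelihood F-test, Benjamini-Hochberg over all 14451 genes). Standard errors are the log2 FC divided by the square root of F. CPM were scaled by TMM. The step was tested on simulated data. The coefficient of biological variation was 0.115.

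Named genes are the 10 of the list, the most abundant gene of each other list with up to 6 called genes, and the 5 nearest to NAMPT, with copies and overlapping genes. The members and lists were chosen with earlier results of these data known. Alternatives were DESeq2 1.42.0, RLE factors, low-count filters set at 1 count in total or 10 in every library, limma-trend (limma 3.58.1) on log2(TPM + 1) or log2(TPM + 0.1), effective lengths as offsets, the replicate number as a block, and each library left out. The sum of NAMPT and NAMPTP1, and all settings for 3 overlapping genes and for QPRT, SIRT1, PARP3, TIPARP and CD38, were added after seeing the data.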

Additional observations from a re-analysis of the deposited data

How the results depend on the processing

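The log2 FC of NAMPT was above 0 under all 14 alternatives other than the summed counts and passed the adjusted p under 6 of them, with 1.15 from DESeq2, 1.20 from limma-trend with 1 or 0.1 added to TPM, 1.30 with effective lengths as offsets, and without ACM replicates 1 or 2. With each library left out it lay between 0.80 and 1.34. The number of genes of the list called higher was 1 in place of 0 with DESeq2, both limma-trend settings and the offsets (NAMPT), and with the filter of at least 1 count (NNMT, adjusted p = 3.44e-04, in a range up to 0.458). It was 0 or 1 with each library left out, and the number called lower was 0 under every alternative. Over all genes, 1045 were higher and 679 lower with the filter of at least 1 count, 230 and 132 or 234 and 138 with limma-trend with 1 or 0.1 added, and 272 and 134 with offsets. The filter of at least 1 count gave KYNU an adjusted p of 5.68e-23 from edgeR with 3 wells per group. The p-values of that fit are therefore read with caution, and no weight is given to calls that it adds. With each library left out, 125 to 738 were higher and 62 to 572 lower. The causes were not tested. SIRT2 turned to 0.0351 and 0.0356 with limma-trend and 0.0604 with offsets. With each library left out, PARP1 lay between -0.0584 and 0.0624, turning without ACM replicate 3 or UCM replicate 1, and BST1 between -0.0984 and 0.0361, turning without ACM replicate 1. The other named genes and the overlapping SKP2, ENSG00000279605 and ENSG00000255872 and the later named QPRT, SIRT1, PARP3, TIPARP and CD38 kept their sign in every alternative that gave a value, and TDO2 and CD38 gave none with at least 10 counts in every library. NMNAT3 and NMRK1 had an adjusted p only with the filter of at least 1 count, and DESeq2 gave none.

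Replicate numbers were checked as a pairing by the correlation of deviations from the group means, which was 0.36, 0.04 and 0.23 for numbers 1, 2 and 3. Between different numbers it ran from -0.37 to 0.24, the highest for ACM replicate 3 with UCM replicate 2. The labels give a number and no pairing, and this check cannot decide whether same-numbered libraries were handled together. With the replicate block, 909 genes were higher and 703 lower, 1 gene of the list was higher (NNMT, adjusted p = 0.0037 from edgeR), and NAMPT had a log2 FC of 1.08 (adjusted p = 0.131) and NT5E an adjusted p of 0.183.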
